A study of Homo sapiens with 6 samples.

Results

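The enzymes and carriers that take up glucose, split it to pyruvate, pass it to lactate, glycogen or the mitochondrion, and control that flow were followed in human thyroid cells after long exposure to a flame retardant. The set held 32 genes of the 16574 measured, taken by symbol from a list chosen with earlier results of these data known. Its shares beside those of all genes are therefore descriptions. All 32 were matched to an Ensembl identifier. The cells were Nthy-ori 3-1, a line from normal human thyroid follicular epithelium that was immortalised with SV40 large T antigen and is labelled wild type (WT). The exposed group had grown for 27 days with BDE209 (decabromodiphenyl ether, used as a flame retardant) at 2.5 µM, and the control group had received the same volume of the solvent DMSO (dimethyl sulfoxide) over 27 days. Each group had 3 RNA libraries with replicate numbers 1 to 3. Whether replicates came from separate cultures is not in the labels, and p-values therefore reflect the spread among these libraries alone, which may be technical.

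Glycolysis converts glucose to pyruvate in the cytosol with a net gain of ATP. Pyruvate then leaves as lactate through lactate dehydrogenase and the monocarboxylate carriers, or enters the mitochondrion and is oxidised by pyruvate dehydrogenase. Many of the steps are served by isoenzymes from separate genes, and several of those genes are textbook targets of the hypoxia-inducible factors. Thyroid epithelium uses glucose both for energy and, through the pentose phosphate pathway, for the reducing power of hormone synthesis.

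The values are FPKM, fragments per transcript kilobase, scaled to library size. A difference stands for exposed minus control in log2(FPKM + 1) unless a sentence says otherwise; adding 1 makes the change of low genes look smaller than it is. Both libraries of replicate 2 stood apart from the other 4. Their FPKM summed to 819086 (DMSO) and 829739 (BDE209), against 567810 to 596725 elsewhere, and ribosomal protein genes took 31.3% and 31.8% of that sum, against 18.8% to 21.3%. Results are therefore given with and without replicate 2. Markers of the labelled cell type were in part absent: 9 of the 11 thyroid follicular markers measured, among them thyroglobulin (TG) and the TSH receptor (TSHR), were under 1 FPKM in all 6 libraries. Of the epithelial markers, the cadherin CDH1 was at 0 in 5 of them, while the keratins KRT7, KRT18 and KRT8 read 75.77 to 113.06, 36.19 to 55.92 and 5.7 to 9.0 FPKM. A further keratin, KRT19, was at 0.08 or less, ESRP1 at 0.11 or less, CLDN4 at 0.14 to 1.03 and EPCAM at 1.06 to 1.21. Summed FPKM of the 8 mesenchymal markers was 9970 to 14700 with solvent and 9180 to 12300 with BDE209. In bulk RNA, a change in all cells and a change in the share of cells cannot be told apart.

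In solvent control cells the lower part of glycolysis was the most abundant. GAPDH, which oxidises glyceraldehyde 3-phosphate, read 10200 ± 1920 FPKM (SD, n = 3), and ENO1, the main enolase, 2930 ± 463. PKM (pyruvate kinase), LDHA (the muscle-type lactate dehydrogenase subunit), TPI1 (triose phosphate isomerase) and ALDOA (the main aldolase) followed at 1540 ± 96.1, 1450 ± 432, 1380 ± 482 and 1180 ± 102. Neighbours in that run of 4 overlapped in range over the 3 libraries. Carriers and gatekeepers were far lower than these genes but differed widely among themselves. The phosphofructokinase PFKP read 141 ± 3.06, the lactate carrier SLC16A3 140 ± 6.81 and hexokinase 1 (HK1) 97.5 ± 3.70. PGK1 of the lower part, at 208 ± 60.6, was not far above the first 2. Glucose carrier SLC2A1 (GLUT1) read 70.2 ± 4.10 and hexokinase 2 (HK2) 11.2 ± 0.364. The lowest of the 31 genes that passed the filter of at least 1 FPKM in 3 or more libraries was the pyruvate dehydrogenase kinase PDK3, at 2.61 ± 0.684. The brain aldolase ALDOC, at 0.34 to 0.56 FPKM with solvent and 0.32 to 0.59 with BDE209, was the 1 gene that did not pass. Per length, GAPDH was therefore the most abundant and ALDOC the least abundant of the set.

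**Figure D1:**
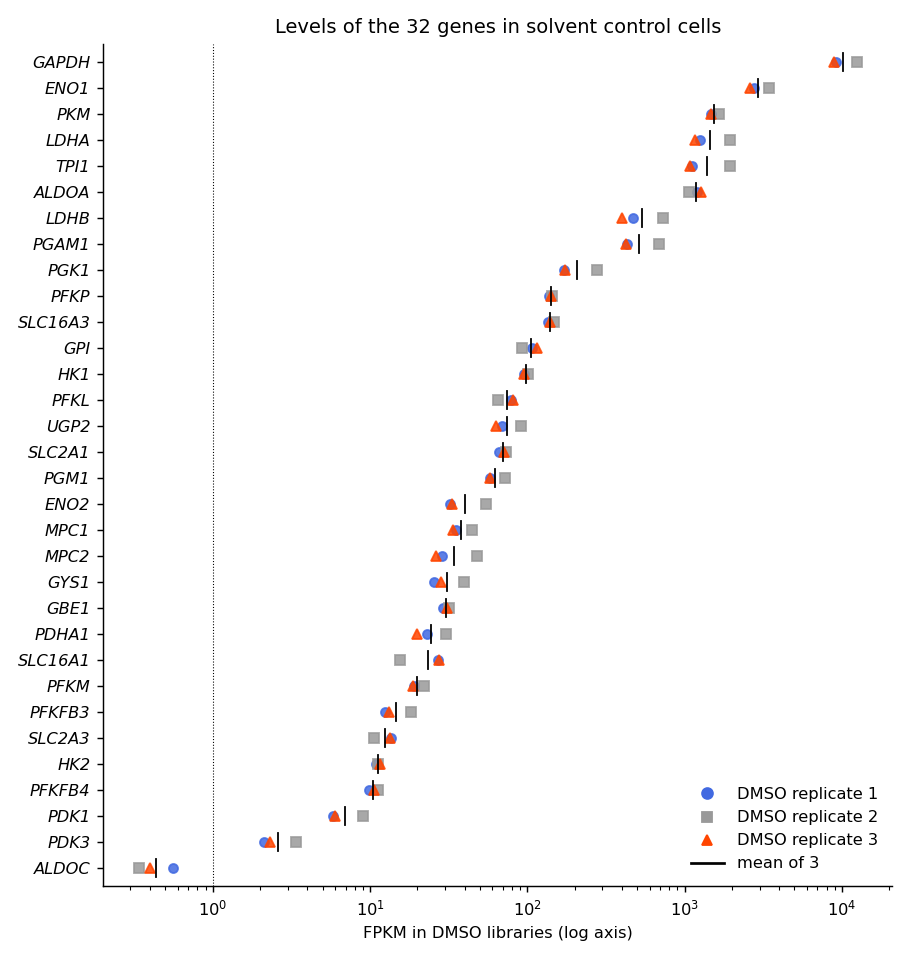
FPKM of the 32 genes in the 3 DMSO libraries on a log axis, 1 symbol per library, with the mean of 3 as a bar and a dotted line at 1 FPKM. GAPDH, at 8952 to 12408 FPKM, stands at the top, and ALDOC, at 0.34 to 0.56, is the 1 gene left of the line.

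Replicate 2 was higher than both other DMSO libraries in 25 of the 31 genes tested, or 80.6%, against 38.5% of all genes tested. TPI1 read 1936 FPKM in DMSO replicate 2 and 1116 and 1088 in replicates 1 and 3. SLC16A1 (the monocarboxylate carrier MCT1) went the other way, with 15.46 against 26.99 and 27.54. Across the 31 genes, this shift had a Spearman rho of -0.40 with the length of the longest transcript in GENCODE v29; the part of length in it was not tested.

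Across all 6 libraries, no gene of the set passed the test. Limma called 0 of the 31 genes, and 0% of all 11223 genes tested, at an adjusted p under 0.05. At an unadjusted p under 0.05 there were 2 of the 31 (ENO2 and PFKFB3) and 176 of all genes. With the replicate number as a block, limma again called 0 of 31 and 0% of all genes, with 9 of 31 and 1847 of all at an unadjusted p under 0.05. The limma adjusted p was 1.00 for each of the 31 in the first fit and at lowest 0.224 (SLC2A3) with the block. ENO2 and PFKFB3 differed by 0.57 (SE 0.222) and 0.46 (SE 0.179) over the 6 libraries. In simulated data the fit without the block called 38.5% of genes shifted by 1, so a gene not called may still differ. The median difference of the set was 0.22, beside 0.01 over all genes tested. ENO2, the neuronal enolase, was the 1 member whose BDE209 values all lay above the DMSO values; 3.22% of all genes did so.

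The 3 replicate numbers did not show the same picture. The median difference of the set was 0.38 in replicate 1, -0.06 in replicate 2 and 0.35 in replicate 3, beside 0.01, 0.02 and 0.00 over all genes. In replicates 1 and 3, 25 of the 31 genes were higher with BDE209 both times. Of those, 20 were lower in replicate 2, a pattern seen in 64.5% of the set and 15.7% of all genes. In 5 genes, PGK1, ENO2, SLC2A3, SLC16A1 and PDK3, all 3 numbers were higher (16.1%, beside 21.9% of all genes). None was lower in all 3, against 17.3% of all genes. Over the 31 genes, differences in replicates 1 and 3, which share no library, had a Pearson r of 0.94. Differences in replicate 2 had an r of -0.27 with replicate 1 and -0.37 with replicate 3. Genes are not independent replicates.

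**Figure D2:**
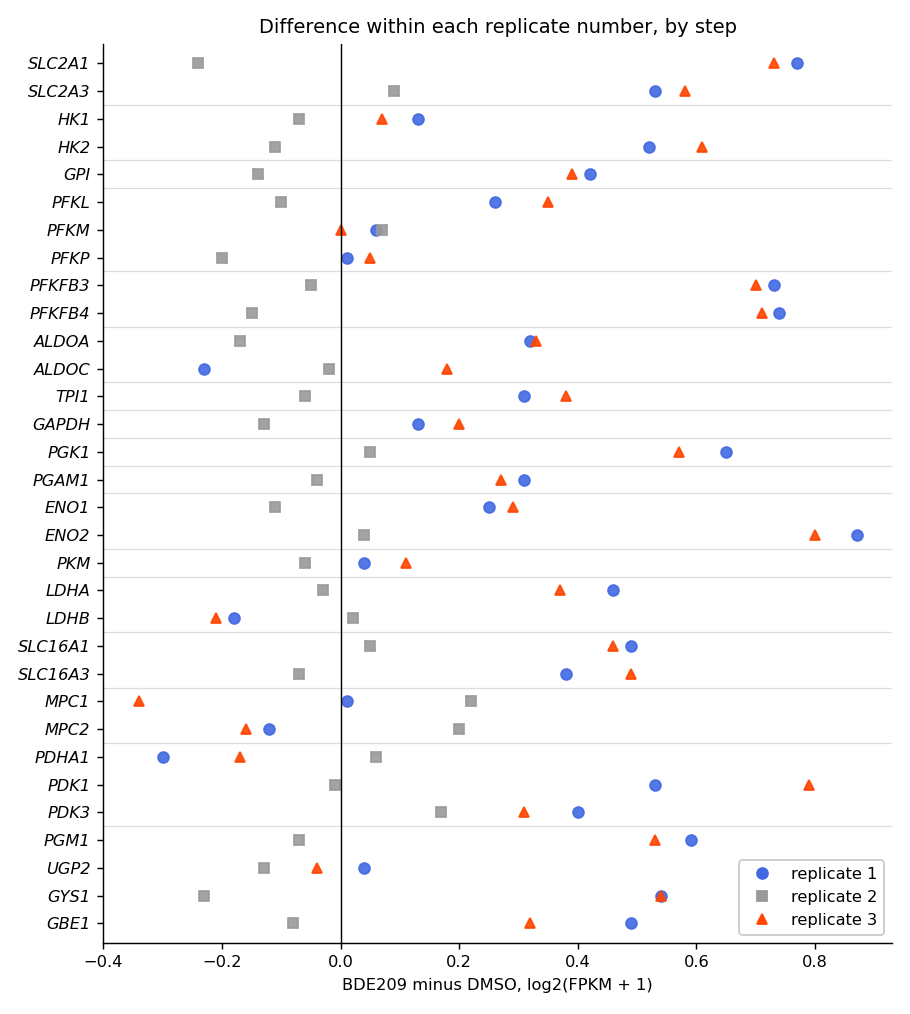
Difference BDE209 minus DMSO, log2(FPKM + 1), within each replicate number, for the 32 genes in the order of the pathway; grey lines part the steps. Replicates 1 and 3 lie together, up to 0.87 for ENO2 in replicate 1, while replicate 2 stays between -0.24 and 0.22.

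In replicates 1 and 3 alone, limma called 16 of the 31 genes as higher (51.6%) and 0 as lower, against 4.47% of all genes higher, 2.33% lower and 6.81% either way. The median difference was 0.35, beside 0.00 over all genes. These 2 numbers were set apart with the pattern known, and the fit has 2 libraries per group. The set itself was chosen with earlier results of these data known, so the gap to all genes is a description. Across the 31 genes, the difference in this fit had a Spearman rho of 0.48 with the length of the longest transcript. With the mean DMSO level its rho was -0.35. The part of length or level in the difference was not tested. The genes that rose were SLC2A1, SLC2A3, HK2, GPI, PFKFB3, PFKFB4, TPI1, PGK1, ENO2, LDHA, SLC16A1, SLC16A3, PDK1, PGM1, GYS1 and GBE1. Unless stated otherwise, "rose" below refers to this fit and adjusted p-values are limma's, Benjamini-Hochberg adjusted over 11223 genes.

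A test of whether the effect itself differed in replicate 2 takes its spread from replicates 1 and 3, since replicate 2 has 1 library per group. It was set up because replicate 2 was already reported to stand apart in these data. Its calls are therefore a description, and its p-values do not measure how the effect varies between cultures. Smaller and larger here mean a lower or higher signed difference in replicate 2, not its distance from no change. SLC2A1 differed by 0.77, -0.24 and 0.73 in replicates 1, 2 and 3. LDHB differed by -0.18, 0.02 and -0.21, and MPC2 by -0.12, 0.2 and -0.16. By that test the effect was smaller in replicate 2 for SLC2A1, by -0.99 (SE 0.135, limma adjusted p = 0.0322), the 1 member called, or 3.23% of the set, beside 0.463% of all genes smaller and 0.151% larger. ENO2 and PFKFB4 followed at -0.80 and -0.87, with adjusted p of 0.0531 and 0.0602. With a term for replicate number as well, 21 members were called as smaller and 2, LDHB and MPC2, as larger in replicate 2, beside 5.0% and 5.27% of all genes. That fit leaves a single residual degree of freedom per gene.

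The mRNAs of both glucose carriers of the set rose. SLC2A1 (ENSG00000117394), the basal carrier, read 65.65, 73.65 and 71.17 FPKM with solvent (replicates 1, 2 and 3 in turn) and 112.82, 62.17 and 119.04 with BDE209. Replicates 1 and 3 of BDE209 lay above every DMSO library, and replicate 2 lay below all of them. The difference was 0.75 (SE 0.0771, adjusted p = 0.00280) in replicates 1 and 3 and 0.42 (SE 0.266, adjusted p = 1.00) in all 6. SLC2A3 (GLUT3), a high-affinity carrier, read 13.54, 10.60 and 13.43 and then 20.06, 11.31 and 20.63, a difference of 0.56 (SE 0.0739, adjusted p = 0.00752). SLC2A3 shares much sequence with SLC2A14, so its reads may have been split.

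Of the hexokinases, which trap glucose in the cell, the inducible HK2 rose, and the widespread HK1 differed by 0.10 (adjusted p = 0.464). HK2 read 10.86, 11.31 and 11.58 FPKM with solvent and 15.97, 10.44 and 18.21 with BDE209 (0.56, SE 0.0907, adjusted p = 0.0150). HK1 read 95.11 to 101.74 with solvent and 97.07 to 104.03 with BDE209, with ranges that overlap. Its interval in replicates 1 and 3 ran from -0.07 to 0.26. GPI, which isomerises glucose 6-phosphate, rose by 0.41 (SE 0.0762, adjusted p = 0.0248).

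None of the 3 phosphofructokinase genes, which serve the committed step, passed the test. Both genes of the set that control the level of its activator rose. PFKP, the platelet form and the most abundant, read 137.51, 143.63 and 140.64 FPKM with solvent and 138.19, 125.34 and 145.89 with BDE209. Its interval in replicates 1 and 3 was -0.14 to 0.20. The muscle form PFKM had one of -0.15 to 0.21, and the liver form PFKL differed by 0.30 (adjusted p = 0.0724). PFKFB3 and PFKFB4 make and degrade fructose 2,6-bisphosphate, which activates phosphofructokinase. Outside the set, PFKFB1 and PFKFB2 did not pass the filter, and TIGAR differed by 0.04 (adjusted p = 0.866). PFKFB3 read 12.38, 18.26 and 13.21 with solvent and 21.20, 17.56 and 22.02 with BDE209 (0.71, SE 0.0779, adjusted p = 0.00345). PFKFB4 read 9.82, 11.17 and 10.65 and then 17.02, 9.98 and 18.11 (0.72, SE 0.0824, adjusted p = 0.00400). In both genes DMSO replicate 2 was the highest control, and BDE209 replicate 2 lay within the range of the controls.

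In the middle and lower steps, 3 of 8 genes rose, namely PGK1, ENO2 and TPI1. PGK1, the first ATP-forming enzyme of glycolysis, read 171.59, 277.58 and 173.73 FPKM with solvent and 269.46, 287.38 and 259.15 with BDE209 (0.61, SE 0.0707, adjusted p = 0.00430). DMSO replicate 2 stood above BDE209 replicates 1 and 3, so the groups overlap. ENO2 (ENSG00000111674) read 32.18, 54.51 and 33.02 with solvent and 59.72, 56.06 and 58.19 with BDE209. Its 0.84 (SE 0.0713, adjusted p = 0.00144) was the largest difference of the set in replicates 1 and 3, and its groups do not overlap. TPI1 rose by 0.35 (adjusted p = 0.0368). ALDOA, PGAM1 (phosphoglycerate mutase) and ENO1 differed by 0.33, 0.29 and 0.27, with adjusted p of 0.0623, 0.0665 and 0.0954. GAPDH and PKM, both often used as reference genes or markers of glycolysis, differed by 0.16 (adjusted p = 0.270) and 0.08 (adjusted p = 0.611). PKM makes muscle and embryonic forms by splicing, which gene-level values do not part. GAPDH, ENO1, PGK1, TPI1, PGAM1 and LDHA have processed pseudogenes, and reads that match them may have been split.

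Of the lactate dehydrogenase subunits, LDHA rose and LDHB did not pass the test. LDHA (ENSG00000134333), whose tetramer favours lactate formation, read 1249.91, 1949.55 and 1159.51 FPKM with solvent and 1723.68, 1915.11 and 1497.45 with BDE209. It rose by 0.42 (SE 0.0946, adjusted p = 0.0467), although DMSO replicate 2 was the highest of all 6 libraries. LDHB (ENSG00000111716), the heart-type subunit, read 469.28, 733.75 and 399.94 and then 414.64, 743.47 and 346.56, a difference of -0.19 (SE 0.116, adjusted p = 0.383). Its values in replicates 1 and 3 were lower with BDE209 and its value in replicate 2 was slightly higher. Both lactate carriers of the set rose: SLC16A1, which moves lactate either way, by 0.47 (SE 0.0713, adjusted p = 0.0119), and SLC16A3 (MCT4), an exporter of strongly glycolytic cells, by 0.43 (SE 0.0795, adjusted p = 0.0229). SLC16A7, a carrier of the same family outside the set, differed by 0.06 (adjusted p = 0.753). SLC16A1 read 26.99, 15.46 and 27.54 with solvent and 38.31, 15.99 and 38.22 with BDE209, so that both replicate 2 libraries were the lowest of their groups. SLC16A3 read 134.47, 147.77 and 138.55 and then 175.59, 140.27 and 194.59.

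**Figure D3:**
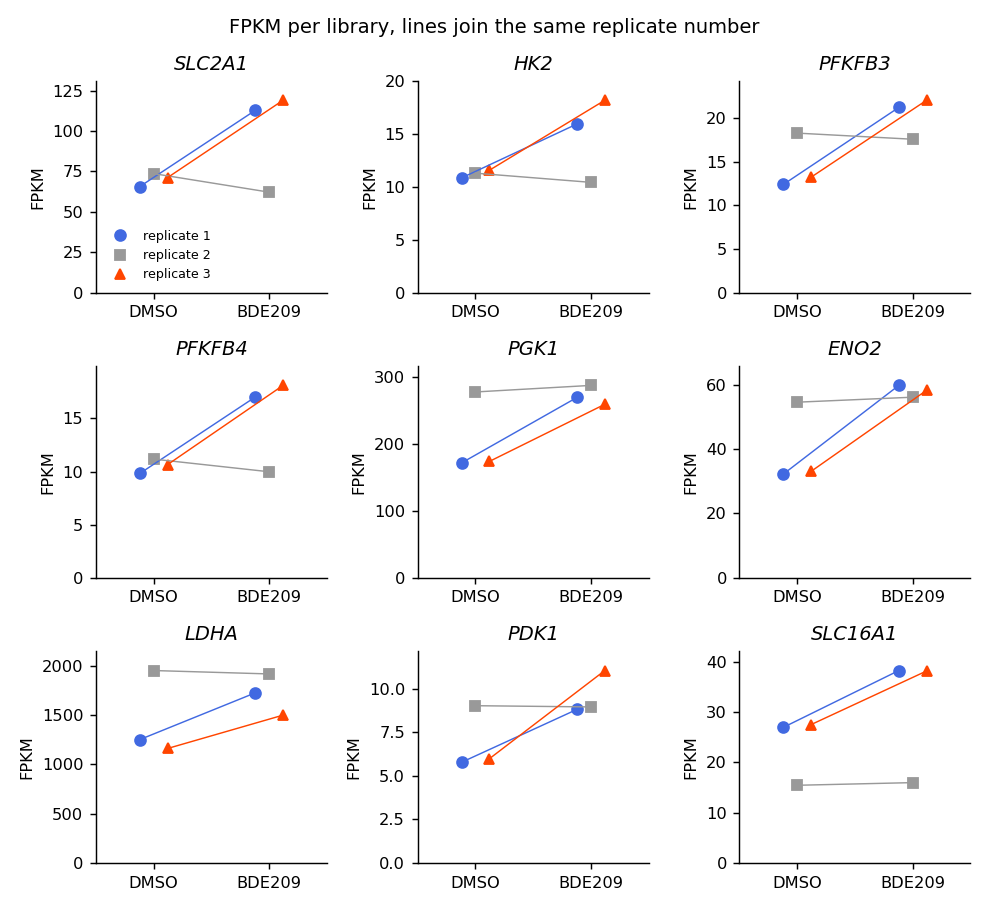
FPKM in each library for 9 genes, DMSO on the left and BDE209 on the right of each panel, with lines joining the same replicate number and axes from 0. Replicates 1 and 3 climb in every panel (SLC2A1 from 65.65 to 112.82 and from 71.17 to 119.04), and the replicate 2 line is close to level.

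Of the 5 genes of the set that carry pyruvate into the mitochondrion or control its oxidation, 1 rose. PDK1, a kinase that switches pyruvate dehydrogenase off, read 5.78, 9.03 and 5.98 FPKM with solvent and 8.82, 8.96 and 11.05 with BDE209, and rose by 0.66 (SE 0.112, adjusted p = 0.0178). Its relative PDK3 read 2.11, 3.39 and 2.33 and then 3.09, 3.93 and 3.12, a difference of 0.35 (adjusted p = 0.0880). PDK2, a kinase outside the set, was higher than both in every library. It read 13.45, 9.95 and 13.70 and then 13.80, 11.25 and 15.16, a difference of 0.09 (adjusted p = 0.593). PDHA1, the catalytic subunit that these kinases target, differed by -0.24 (SE 0.0897, adjusted p = 0.180), with 22.98, 30.44 and 20.03 with solvent and 18.46, 31.83 and 17.67 with BDE209. MPC1 and MPC2, both subunits of the mitochondrial pyruvate carrier, differed by -0.17 (adjusted p = 0.517) and -0.14 (adjusted p = 0.418). LDHB, PDHA1, MPC2 and MPC1 were thus the 4 lowest differences of the set in replicates 1 and 3, and none of them passed the test.

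Of the 4 glycogen genes, 3 rose. PGM1, which joins glucose 6-phosphate to glucose 1-phosphate, read 57.86, 72.56 and 57.81 FPKM with solvent and 87.37, 68.88 and 83.95 with BDE209 (0.56, SE 0.0701, adjusted p = 0.00618). GYS1, the muscle-type glycogen synthase, read 25.64, 39.41 and 28.40 and then 37.73, 33.55 and 41.82 (0.54, SE 0.0890, adjusted p = 0.0160). GBE1, the branching enzyme, rose by 0.41 (SE 0.0777, adjusted p = 0.0270). UGP2, which makes UDP-glucose between the steps of PGM1 and GYS1, had an interval of -0.23 to 0.23. BDE209 replicate 2 was lower than its DMSO partner in all 4 of these genes.

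Shares of isoforms within a library do not depend on its scaling. Over 9 isoform groups, an exact two-sided permutation test of 3 against 3 libraries cannot go below 0.1. None passed after adjustment over the 9, where the lowest adjusted p was 0.900. LDHA made up 72.7%, 72.7% and 74.4% of the FPKM of LDHA and LDHB in DMSO replicates 1, 2 and 3 and 80.6%, 72.0% and 81.2% with BDE209. The means were 73.2% ± 0.967 and 78.0% ± 5.13 (SD, n = 3, exact permutation p = 0.400), and replicate 2 of BDE209 lay below every control. HK2 made up 10.2%, 10% and 10.8% of both hexokinases in DMSO and 13.3%, 9.71% and 15.4% with BDE209 (exact p = 0.400).

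ENO2 and PFKP were the groups in which replicate 2 went the same way as the others. ENO2 took 1.16%, 1.55% and 1.26% of enolase FPKM in DMSO and 1.80%, 1.72% and 1.80% with BDE209, with no overlap (exact p = 0.1, adjusted 0.900). PFKP took 58.6%, 62.3% and 58.5% of the phosphofructokinases in DMSO and 54.9%, 59.9% and 54.4% with BDE209, differences of -3.69, -2.36 and -4.06 points (exact p = 0.3). The shares of PFKFB4 over PFKFB3, SLC2A3 over SLC2A1, SLC16A3 over SLC16A1 and PDK1 over PDK3 had exact p from 0.700 to 1.00. The whole set took 3.20%, 3.09% and 3.20% of all FPKM in DMSO replicates 1, 2 and 3 and 3.75%, 2.84% and 3.88% with BDE209.

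**Figure D4:**
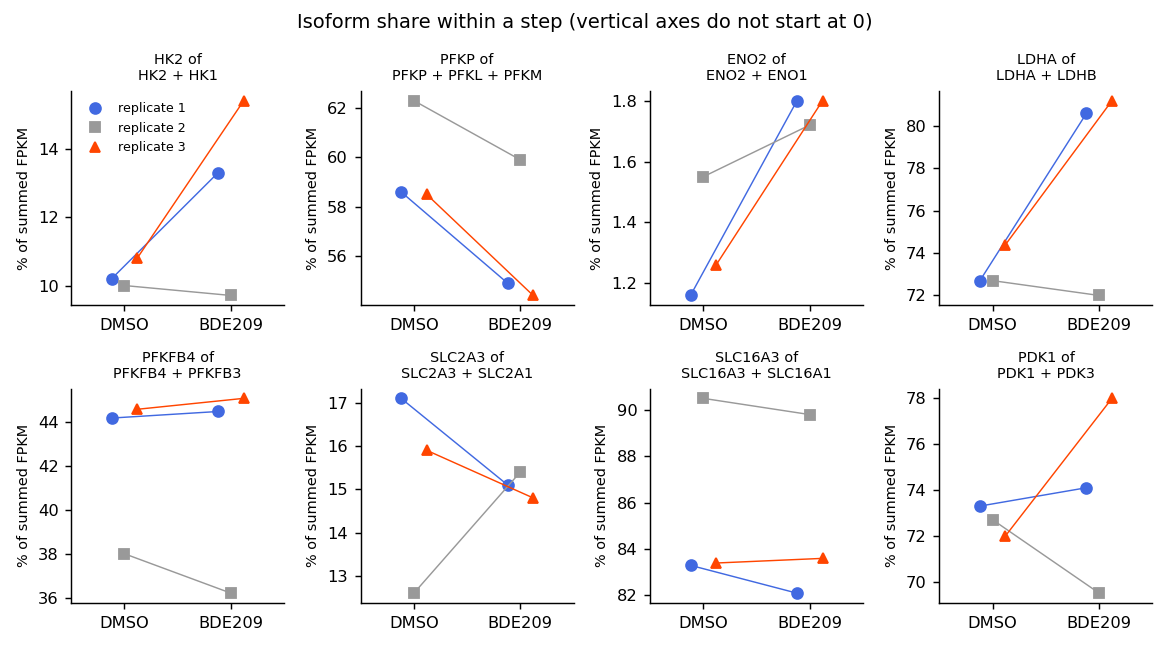
Share of the first-named isoform in the summed FPKM of its step, in percent, for 8 groups, with lines joining the same replicate number; vertical axes do not start at 0. LDHA goes from 72.7% to 80.6% and from 74.4% to 81.2% in replicates 1 and 3 and from 72.7% to 72.0% in replicate 2.

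Since members moved together in replicates 1 and 3, promoter sequence was read for those with the 4 largest differences there and, beside them, for the 2 with the smallest. Each line gives the 250 bases before a gene's first listed RefSeq start, 5′ to 3′ on the gene's strand, in build GRCh38.p14. Capitals mark ACGTG or GCGTG on either strand, the core that hypoxia-inducible factors bind (CACGT and CACGC are the same core on the other strand).
ENO2, chr12:6914330-6914579, plus strand: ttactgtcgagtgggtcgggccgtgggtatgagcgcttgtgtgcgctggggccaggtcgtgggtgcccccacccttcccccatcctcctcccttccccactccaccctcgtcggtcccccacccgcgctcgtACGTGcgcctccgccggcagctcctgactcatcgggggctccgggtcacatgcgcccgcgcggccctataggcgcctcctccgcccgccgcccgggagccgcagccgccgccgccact
SLC2A1, chr1:42958869-42959118, minus strand: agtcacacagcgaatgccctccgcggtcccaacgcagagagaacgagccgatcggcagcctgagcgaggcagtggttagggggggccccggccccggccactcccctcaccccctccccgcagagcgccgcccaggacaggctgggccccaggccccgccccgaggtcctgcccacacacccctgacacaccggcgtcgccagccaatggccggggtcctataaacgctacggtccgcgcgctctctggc
PFKFB4, chr3:48556804-48557053, minus strand: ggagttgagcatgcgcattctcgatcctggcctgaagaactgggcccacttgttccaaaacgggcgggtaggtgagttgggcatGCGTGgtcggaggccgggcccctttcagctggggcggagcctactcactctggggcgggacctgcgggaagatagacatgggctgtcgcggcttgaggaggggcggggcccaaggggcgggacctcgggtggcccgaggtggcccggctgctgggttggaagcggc
PFKFB3, chr10:6144671-6144920, plus strand: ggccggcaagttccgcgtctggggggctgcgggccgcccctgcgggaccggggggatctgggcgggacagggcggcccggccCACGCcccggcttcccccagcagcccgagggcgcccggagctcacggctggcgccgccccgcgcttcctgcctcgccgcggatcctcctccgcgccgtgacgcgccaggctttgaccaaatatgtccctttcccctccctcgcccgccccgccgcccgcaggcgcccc
UGP2, chr2:63840719-63840968, plus strand: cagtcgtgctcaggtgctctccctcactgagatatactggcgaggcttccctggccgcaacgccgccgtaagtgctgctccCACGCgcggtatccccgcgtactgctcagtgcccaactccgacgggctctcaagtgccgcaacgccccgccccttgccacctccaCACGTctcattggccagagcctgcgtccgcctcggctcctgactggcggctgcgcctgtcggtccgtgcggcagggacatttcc
PFKM, chr12:48105623-48105872, plus strand: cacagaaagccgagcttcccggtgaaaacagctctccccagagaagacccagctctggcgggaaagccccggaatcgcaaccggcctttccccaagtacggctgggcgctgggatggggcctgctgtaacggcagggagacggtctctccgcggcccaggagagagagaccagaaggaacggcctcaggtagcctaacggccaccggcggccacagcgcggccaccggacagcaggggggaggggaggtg
The sequences of ENO2, SLC2A1, PFKFB4 and PFKFB3 hold 1, 0, 1 and 1 matches, and those of UGP2 and PFKM hold 2 and 0. PFKM had 7 listed windows and PFKFB3 and UGP2 had 2 each, of which only the first is shown. Of the 30 members with a promoter entry, 18 (60.0%) had at least 1 match in that window, beside 43.1% of 27305 genes. Among the members that rose and have an entry it was 9 of 14, and among the others 9 of 16. Over all listed windows, 34 of 61 member windows (55.7%) had a match, beside 43.2% of all windows. In the first listed window, LDHA had 5 matches and PGK1 had 3, and PDK1 and PGM1 had 0. A match in a short window is a description and not a binding site.

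Neighbouring routes of sugar metabolism were read from lists of other genes, chosen, like the set, with earlier results of these data known. In replicates 1 and 3, limma called 0 of 11 pentose phosphate genes, 1 of 23 citrate cycle genes (higher), 1 of 12 other sugar and monocarboxylate carriers (higher), 1 of 9 other pyruvate dehydrogenase and carboxylase genes (higher), 2 of 20 other glycogen genes (higher) and 1 of 8 further glycolytic isoforms and regulators (lower), beside 4.47% of all genes higher and 2.33% lower. Those genes were SLC16A6, PDP1, PPP1R3C, PPP1R3B, ACO1 and, as the lower one, BPGM. Of 3 further genes of gluconeogenesis it called 0. In all 6 libraries it called 0 in each of these lists. Median differences in replicates 1 and 3 were 0.04 for the pentose phosphate and -0.09 for the citrate cycle list. In the citrate cycle, 9 of 23 genes were lower and 0 higher in all 3 numbers, among them citrate synthase CS at -0.21 over all 6 libraries (SE 0.150, adjusted p = 1.00) and fumarase FH at -0.19 (SE 0.185, adjusted p = 1.00). Background shares were 17.3% lower and 21.9% higher.

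Some genes of those lists were higher in all 3 numbers. SLC16A6, a carrier of the monocarboxylate family, read 0.46, 0.94 and 0.51 FPKM with solvent and 1.72, 1.43 and 1.58 with BDE209. PPP1R3C, which targets a phosphatase to glycogen, read 0.77, 0.70 and 0.74 and then 1.70, 1.14 and 1.60. Both genes passed the filter of 1 FPKM in 3 libraries only through the BDE209 group, so their calls and the gap between their groups are a description and support nothing. PDP1, the phosphatase that reverses the pyruvate dehydrogenase kinases, read 18.36, 14.87 and 19.75 and then 29.15, 16.47 and 29.40 (0.60, SE 0.0766, adjusted p = 0.00665), and its groups overlap.

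The list of other hypoxia-inducible factor targets had medians of 0.69, 0.03 and 0.60 in replicates 1, 2 and 3. In replicates 1 and 3 limma called 18 of its 24 genes as higher and 1 as lower, beside 4.47% and 2.33% of all genes. In all 6 libraries, with or without the replicate block, it called 0 of the 24. This list too was chosen with earlier results of these data known, so its counts are a description. MXI1, a partner of MAX that opposes MYC, read 4.85, 6.34 and 5.08 FPKM with solvent and 11.94, 7.11 and 11.02 with BDE209. DDIT4, an inhibitor of mTORC1, read 138.73, 77.71 and 141.90 and then 227.96, 98.01 and 235.94. Of the factor's own subunits and regulators, 2 of 9 (EPAS1 and EGLN1) rose, and HIF1A, an oxygen-regulated subunit, read 97.74 to 98.65 FPKM with solvent and 93.15 to 100.78 with BDE209. Oxygen, protein levels, glucose use and lactate were not measured in these files. MYC, which also drives glycolytic genes, was lower in all 3 numbers, at -0.11 over all 6 libraries (SE 0.118, adjusted p = 1.00).

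**Figure D5:**
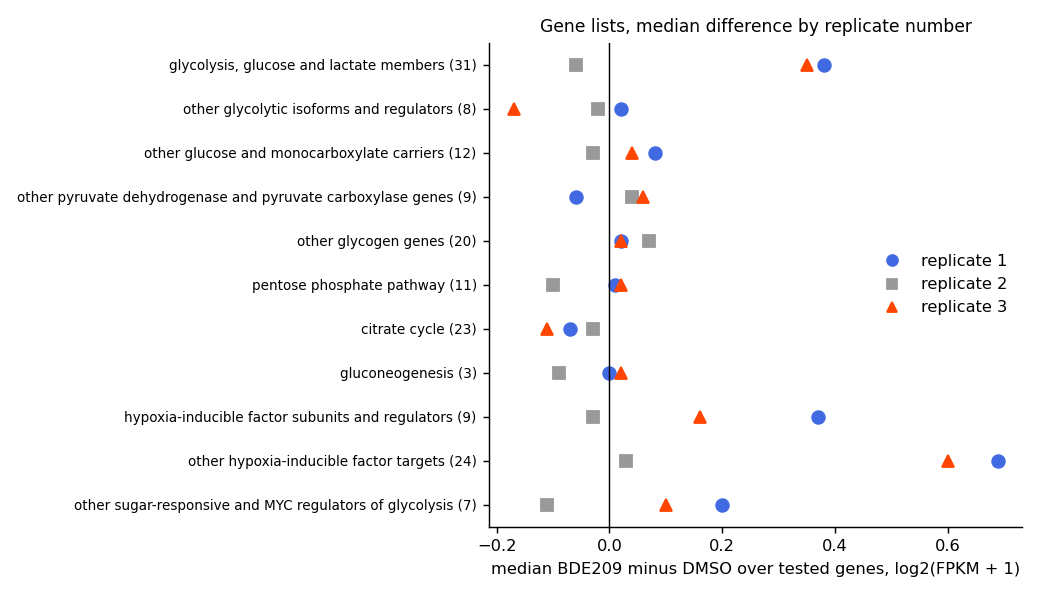
Median difference BDE209 minus DMSO over the tested genes of each list, log2(FPKM + 1), 1 symbol per replicate number; the number of genes tested stands in brackets. The members lie at 0.38 and 0.35 in replicates 1 and 3 and the other hypoxia-inducible factor targets at 0.69 and 0.60, while the pentose phosphate list lies at 0.01 and 0.02.

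Markers of other cells moved in part with replicates 1 and 3. Of the 8 mesenchymal markers, which summed as given above, 3 were called lower there (COL3A1, FN1 and PDGFRB) and 1 higher (CDH2), beside 2.33% of all genes lower and 4.47% higher. FN1, fibronectin, read 1148.34, 560.44 and 1158.66 FPKM with solvent and 788.43, 426.29 and 809.87 with BDE209. The 8 epithelial markers summed to 151 to 180 FPKM with solvent and 119 to 156 with BDE209, with 3 of them under 1 in every library, and none was called. Of other cell types, 3 of 4 leukocyte markers, 4 of 5 endothelial, 2 of 2 erythroid and 4 of 4 parafollicular markers measured were under 1 FPKM in all libraries. Their summed ranges were 58.9 to 74.4, 2.55 to 2.77, 0 to 0.190 and 0.260 to 0.640 with solvent and 49.0 to 68.3, 2.79 to 3.59, 0 and 0.240 to 0.420 with BDE209. PTPRC, the pan-leukocyte marker, was at 0.02 or less in every library. CD68 made up most of the leukocyte sum. It read 65.66, 73.63 and 58.03 FPKM with solvent and 49.29, 67.67 and 48.18 with BDE209, and was not called in replicates 1 and 3 (limma adjusted p = 0.0648). The part of all these markers in the differences of the set was not tested.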

How the data were processed

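RNA sequencing of 6 libraries was analysed from 1 FPKM value per gene and library, as deposited by the authors, to 2 decimals, per the file headers. Bowtie 0.12.2, RSEM and Bowtie2 are named, with the builds mm10 and mm8, per the submitters' processing notes. Those are mouse builds, although the identifiers are human. The sources used here do not state a human build, strand use or the handling of shared reads, so gene coordinates are limited to the RefSeq promoter windows.

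Of 16614 rows, 40 rows of 20 repeated identifiers were left out, and 16535 of the 16574 genes left matched a symbol. Limma 3.58.1 (R 4.3.3, trend and robust options) was run on log2(FPKM + 1) for the 11223 genes with at least 1 FPKM in 3 or more libraries, with treatment alone in the model. A call needed p under 0.05 after Benjamini-Hochberg adjustment. The fits were run on simulated data with independent noise in each library and 200 genes shifted by 1 log2 unit. With 6 libraries, limma called 38.5% of those genes and made 3 false calls. With replicates 1 and 3 only, it called 72.5% and made 2 false calls. The shared shift of replicate 2 was not simulated, and smaller differences were not tried. Isoform shares were compared by exact permutation.

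The replicate numbers were taken to pair the libraries, since each correlation was over 0.1: deviations from group means correlated at 0.738, 0.875 and 0.824 for numbers 1, 2 and 3. Replicates 1 and 3 also correlated across numbers, at 0.644 and 0.646, and replicate 2 with either at -0.755 to -0.822, so the check mostly sets replicate 2 against the rest. The labels do not say what a number shares. Depth in fragments is unknown: the most frequent ratio of low values to those of DMSO replicate 1 was 0.99 in 4 libraries and 0.79 in DMSO replicate 3, and whole fragments were not recovered. Members and lists were chosen with earlier results of these data known. Named genes were all members and, from each other list, up to 3 genes with 1 sign in all numbers and the largest differences, or the 2 largest. The markers, HIF1A, PFKFB1, PFKFB2, TIGAR, SLC16A7 and the genes of the closing part were named after their values were seen. Protein sequences were not used here.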

Additional observations from a re-analysis of the deposited data

How the results depend on the processing

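The replicate block, a pseudocount of 0.1, no filter, a minimum of 5 FPKM, rescaling to an equal sum, median-of-ratios scaling, quantile normalization and limma without its trend and robust options all called 0 genes in 6 libraries. The same held in replicates 1 and 2 alone and in replicates 2 and 3 alone. Without both replicate 2 libraries, 764 genes and 16 members were called. Leaving out 1 library gave 0 to 1 genes (C1QTNF1, without BDE209 replicate 2), 0 members, and a set median of 0.15 to 0.36 against 0.22. The replicate block left every member's direction as it was; in the test of a differing effect it raised the calls from 69 to 1153 genes and from 1 to 23 members, where the lone residual degree of freedom makes the count unsure. No scaling moved the median of all genes by over 0.1.

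Directions changed only among small differences. PFKP turned to 0.03 in replicates 1 and 3. HK1 turned to -0.00042 and MPC2 to 0.02 in replicates 2 and 3, and in replicates 1 and 2 GAPDH turned to -0.0039, PKM to -0.01, MPC1 to 0.11 and MPC2 to 0.04. PKM was -0.0027 with median-of-ratios scaling and -0.0027 with that scaling and the replicate block. Leaving out 1 library, LDHB ran from -0.45 to 0.13, PDHA1 from -0.40 to 0.02, UGP2 from -0.16 to 0.11, MPC1 from -0.29 to 0.19, MPC2 from -0.40 to 0.24, GAPDH from -0.02 to 0.21, PFKM from -0.05 to 0.12 and PFKP from -0.09 to 0.01. In points of isoform share, leaving out 1 library gave -2.47 to 2.56 for PFKFB4, -1.40 to 0.86 for SLC2A3, -2.91 to 1.80 for SLC16A3 and -0.86 to 3.38 for PDK1; PFKFB4 was 0.40 in replicates 1 and 3. The cause was not tested. Sign flips over the 3 pairs, the share test with a replicate block, cannot go below 0.25. FPKM limit what can be said of precision, since the fragments behind a value are unknown.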

Other observations

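Within the lists of neighbouring routes, some genes that the naming rule did not reach had large differences in replicates 1 and 3; they were chosen after their values were seen. EPAS1, the second oxygen-regulated alpha subunit of the hypoxia-inducible factors, read 19.22, 19.09 and 20.85 FPKM with solvent (replicates 1, 2 and 3 in turn) and 37.63, 18.77 and 39.99 with BDE209 (0.92, SE 0.0804, limma adjusted p = 0.00153). EGLN1, the main prolyl hydroxylase that marks those subunits for decay, read 10.93, 12.45 and 12.19 and then 16.60, 12.15 and 19.46 (0.60, SE 0.101, limma adjusted p = 0.0179). HIF1A differed by -0.02 in the same libraries (limma adjusted p = 0.911).

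ACO1, the cytosolic aconitase that doubles as an iron sensor, was the 1 gene of the citrate cycle list called higher, with 19.91, 20.08 and 19.06 FPKM with solvent and 31.80, 18.64 and 32.60 with BDE209 (0.70, SE 0.0739, limma adjusted p = 0.00316). BPGM, which makes the 2,3-bisphosphoglycerate side product of glycolysis, was the 1 gene of the further glycolytic list called, and it was lower: 32.70, 38.19 and 32.45 with solvent and 23.11, 43.41 and 21.36 with BDE209 (-0.53, SE 0.0770, limma adjusted p = 0.0102). In replicate 2 BPGM was higher with BDE209, as were LDHB, PDHA1 and MPC2. With the replicate block in 6 libraries, the limma adjusted p of EPAS1, EGLN1, ACO1 and BPGM was 0.273 to 0.393.

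BNIP3, a mitophagy receptor and hypoxia target, was already at 313.09 FPKM in control replicate 2. Controls 1 and 3 read 126.34 and 123.10, and the 3 exposed libraries 268.23, 286.20 and 271.10. CA9, the hypoxia-linked carbonic anhydrase, read 26.68 in control replicate 2, 7.26 and 9.42 in the other controls, and 42.82, 24.40 and 48.00 in exposed replicates 1, 2 and 3. Both genes were chosen after their values were seen. Among the 16 members that rose, DMSO replicate 2 reached at least the lower of BDE209 replicates 1 and 3 in TPI1, PGK1, LDHA, PDK1 and GYS1. In the others, such as SLC2A1 and HK2, it did not. The share of all genes with this overlap was not counted, so the list is a description.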
